A study of Homo sapiens with 21 samples.

Results

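Keratins are the intermediate filament proteins of epithelial cells, and 9 of them were followed through the change from flat culture to spheroids in HepG2/C3A cells: KRT8, KRT18, KRT7, KRT19, KRT23, KRT80, KRT10, KRT15 and KRT17. They were taken by symbol from the table of counts, where they are 9 of 19683 gene symbols and 9 of 55 keratin genes. Of the 9, 8 passed the filter on low counts, as did 12345 genes of the whole table, and KRT7 did not. HepG2/C3A is a human hepatoma-derived line with hepatocyte features, used here in the wild type form as a single line, so no second line or donor stands behind any comparison. The control group was the 2D monolayer, grown in MEM medium with serum, and the 6 other groups were spheroids collected on days 3, 7, 10, 14, 21 and 28 (Day 3 to Day 28 from here on). Cells were forced together in plates of ultra-low attachment, and the spheroids were held from then on in a rotating vessel, the ClinoReactor, so culture form, vessel and time in culture differ together between the monolayer and every spheroid group. No drug or other agent was added in any group. Each group had 3 libraries, 21 in all, described as biological replicates; whether they came from separate cultures is not given, and the p-values measure the spread between these libraries.

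A keratin filament is built from pairs of 1 type I (acidic) and 1 type II (basic) chain, so the members have partners. KRT8 (type II) and KRT18 (type I) are the pair of the hepatocyte and of simple epithelia in general. KRT7 (type II) and KRT19 (type I) are added in bile duct cells, where KRT19 is also a marker of progenitors and of some liver tumours. KRT23 and KRT80 are less studied chains of type I and type II. KRT10, KRT15 and KRT17, all type I, belong to stratified epithelia: KRT10 to the layers above the basal cells, KRT15 to basal and hair follicle cells, and KRT17 to skin appendages and injured epidermis.

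RNA was read with TempO-Seq, in which pairs of short detector oligos are ligated on a target RNA and the ligated product is sequenced and counted. A gene is thus read at one or a few short sites and not along its length, and a count does not grow with transcript length. Levels are given below as CPM, counts in proportion to a library total scaled by the trimmed mean of M-values (TMM), and they are compared between groups for the same gene, since probes for different genes can differ in efficiency. Means are given ± SD with n = 3 libraries. Fold changes are log2 values ± SE from edgeR's quasi-likelihood test fitted on all 21 libraries, and a call is an adjusted p (Benjamini-Hochberg, over all 12345 genes tested) under 0.05. Library totals ranged from 18760232 to 43443262 counts, with a median of 31997292. The summed level of a list of 20 hepatocyte markers was 29014 to 31767 CPM in the monolayer, 69193 to 71804 CPM on Day 3 and 56907 to 68061 CPM on Day 28. The 9 keratins took between 0.0405% and 0.103% of all counts of a library.

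In the annotation (GENCODE 29, GRCh38; the count table holds no coordinates), 4 members lie on chromosome 12 and 5 on chromosome 17. KRT8 spans 12:52897187-52949954 on the minus strand and KRT18 spans 12:52948871-52952901 on the plus strand, and the ends of their annotated spans overlap by 1084 bases. KRT80 (12:52168996-52192000, minus strand) and KRT7 (12:52232520-52252186, plus strand) lie in the same cluster. On chromosome 17, all on the minus strand, are KRT10 (17:40818117-40822595), KRT23 (17:40922696-40937634), KRT15 (17:41513743-41522529), KRT19 (17:41523617-41528308) and KRT17 (17:41619441-41624842). KRT15 and KRT19 are neighbours with 1087 bases between them. KRT18 and KRT8 have many annotated pseudogenes: 68 carry the name of KRT18 and 50 that of KRT8. For KRT17 the number was 8, for KRT19 it was 5, and for KRT7, KRT23, KRT80, KRT10 and KRT15 it was 0. Of all 50-base stretches in the principal transcript, 32.7% of those of KRT8 and 31.8% of those of KRT18 occur without a mismatch in the transcripts of another annotated gene, mostly such pseudogenes. For KRT17 the share was 16.0%, with KRT14 and KRT16 among the genes holding them, and for KRT19 it was 1.79%. No 50-base stretch of KRT23 or KRT10 was shared, and the shares of KRT7, KRT80 and KRT15 were 0.997%, 0.420% and 0.328%. The probe sites were not known here, so the KRT8, KRT18 and KRT17 values are uncertain to the extent that a probe lies in a shared stretch.

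**Figure D1:**
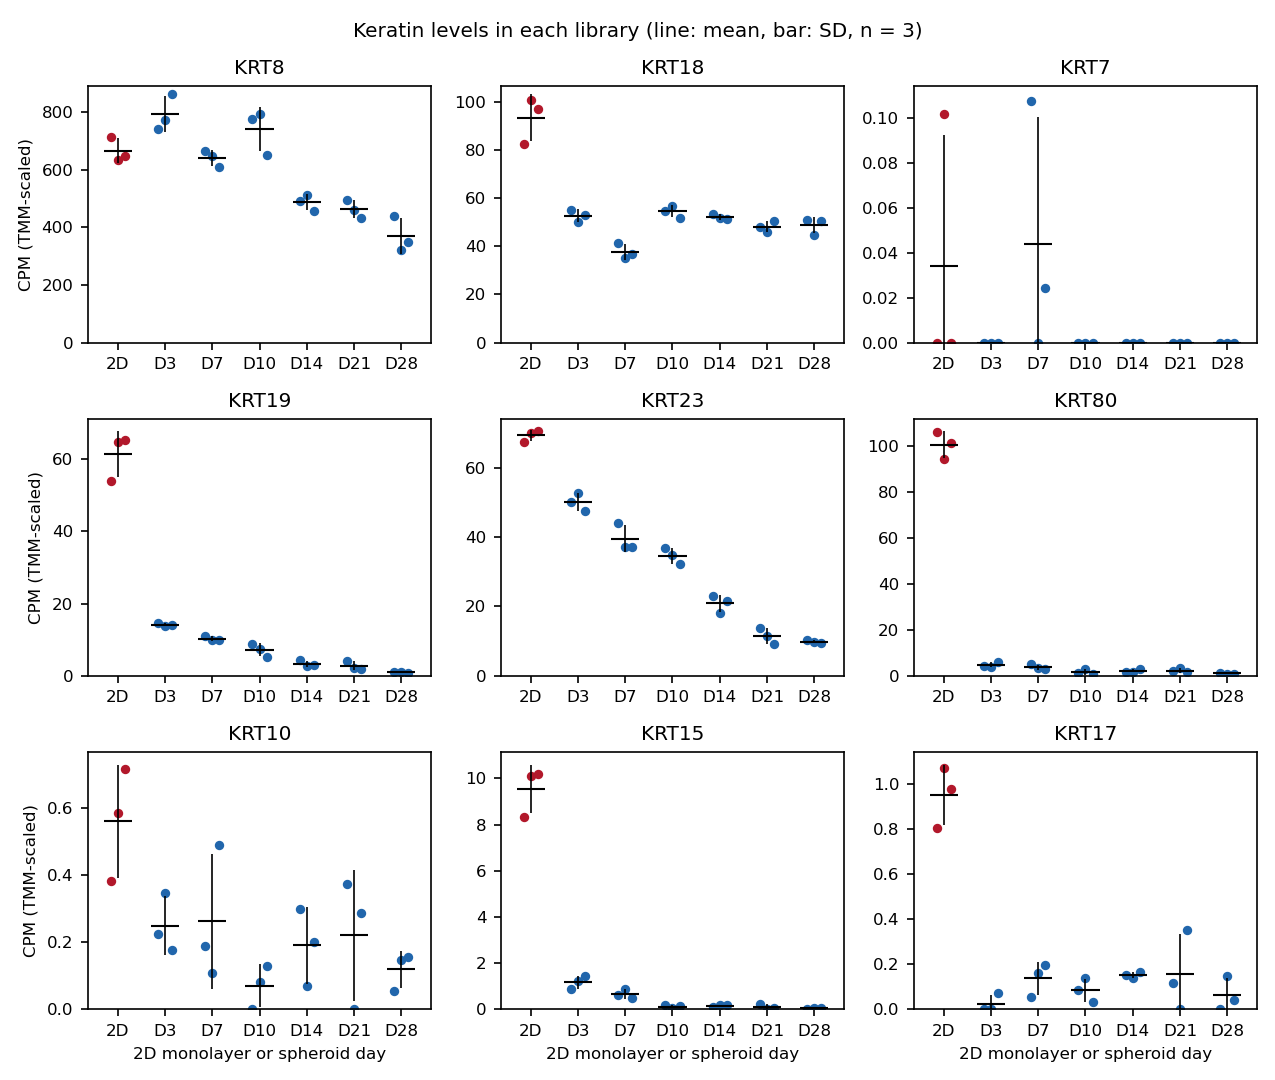
Level of each of the 9 keratins in CPM (vertical axes, linear from 0, each with its own scale) in the 2D monolayer (red) and on the 6 spheroid days (blue), with 1 point per library, a line at the mean and a bar for the SD of 3 libraries. KRT19, KRT80, KRT15 and KRT17 are high in the 3 monolayer libraries alone, KRT23 steps down from 69.3 to 9.83 CPM, and KRT8 reads at least 610.4 CPM in every library through Day 10. The higher monolayer level of KRT17 is no added evidence, since this gene passed the filter on low counts through the monolayer alone.

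KRT8, the most counted keratin, was 1.19-fold higher in Day 3 spheroids than in the monolayer and then fell below it from Day 14 on. Its 3 monolayer libraries read 714, 635 and 648 CPM and its Day 3 libraries 741, 772 and 862 CPM, so that the groups did not overlap, with means of 666 ± 42.5 and 792 ± 62.8 CPM. The change was 0.25 ± 0.091 on the log2 scale (adjusted p = 0.0153, edgeR). It rests on 3 single libraries: with monolayer replicate 2 left out the adjusted p was 0.0690, with monolayer replicate 3 left out 0.0546, and with Day 3 replicate 3 left out 0.0946. On Day 7 the libraries read 665, 648 and 610.4 CPM, which overlapped the monolayer (-0.054 ± 0.091, adjusted p = 0.599). With library size alone as the scaling, the log2 change on Day 7 had the other sign (0.11). On Day 10 the libraries read 775, 791 and 652 CPM, which overlapped the monolayer (0.15 ± 0.091, adjusted p = 0.131). The Day 10 call was gained when only the groups compared were fitted (adjusted p = 0.0346), with no filter on low counts (adjusted p = 0.0255), with library size alone as the scaling (adjusted p = 0.00124) and without Day 10 replicate 3 (adjusted p = 0.0394).

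From Day 14 the KRT8 libraries lay below every monolayer library. They read 490.4, 513 and 457 CPM on Day 14, 494, 461 and 433 CPM on Day 21, and 440.4, 322 and 349 CPM on Day 28. The log2 changes against the monolayer were -0.45 ± 0.091 on Day 14, -0.52 ± 0.091 on Day 21 and -0.85 ± 0.092 on Day 28 (adjusted p = 9.02e-05, 1.3e-05 and 6.83e-09). In these bulk samples fewer cells of a type and less RNA per cell cannot be told apart. Ordered by mean, KRT8 ran from Day 3 through Day 10, the monolayer and Day 7 (641 ± 27.9 CPM) to Day 14, Day 21 and Day 28 (371 ± 62.0 CPM). Of the neighbours in that order, Day 7 and Day 14 alone had libraries that did not overlap.

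KRT18, the type I partner of KRT8, fell in the spheroids by Day 3 and followed another course. It read 82.3, 100.9 and 96.8 CPM in the monolayer, 55.2, 50.02 and 53.1 CPM on Day 3 and 41.5, 35.1 and 36.6 CPM on Day 7. It then read 54.7, 56.8 and 51.9 CPM on Day 10, 53.5, 51.6 and 51.1 CPM on Day 14, 48.0, 46.0 and 50.6 CPM on Day 21 and 50.7, 44.8 and 50.5 CPM on Day 28. Every spheroid library was below every monolayer library, and the Day 7 libraries were below all other libraries. Against the monolayer the log2 change was -0.82 ± 0.081 on Day 3 (adjusted p = 4.34e-11), -1.31 ± 0.081 on Day 7 (adjusted p = 5.19e-16) and -0.94 ± 0.081 on Day 28 (adjusted p = 3.08e-12). On Days 10, 14 and 21 it was -0.78, -0.84 and -0.95. Among spheroids KRT18 fell from Day 3 to Day 7 by 0.48 (adjusted p = 5.47e-05), rose again by 0.53 from Day 7 to Day 10 (adjusted p = 9.13e-06) and passed the test in no later step; Day 28 against Day 3 gave -0.12 ± 0.082 (adjusted p = 0.218).

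The ratio of the 2 partners of the hepatocyte pair widened in early spheroids and narrowed again. The KRT8 count was on average 7.22 times the KRT18 count in the monolayer, 15.03 times on Day 3, 17.04 times on Day 7, 13.6 times on Day 10, 9.35 times on Day 14, 9.62 times on Day 21 and 7.59 times on Day 28. Each of these values, and each count ratio of another keratin to KRT18 below, is the mean of 3 library ratios. The size of this ratio depends on the probes, and its course between groups is given as a description with no test. On the log2 scale it was 2.84 ± 0.25 in the monolayer, 4.09 ± 0.11 on Day 7 and 2.92 ± 0.18 on Day 28. The libraries of Day 3, Day 7, Day 10 and Day 14 were above all monolayer libraries, and those of Day 21 and Day 28 overlapped them. Over the 21 libraries, which share their groups, Pearson's r between KRT8 and KRT18 was 0.24.

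**Figure D2:**
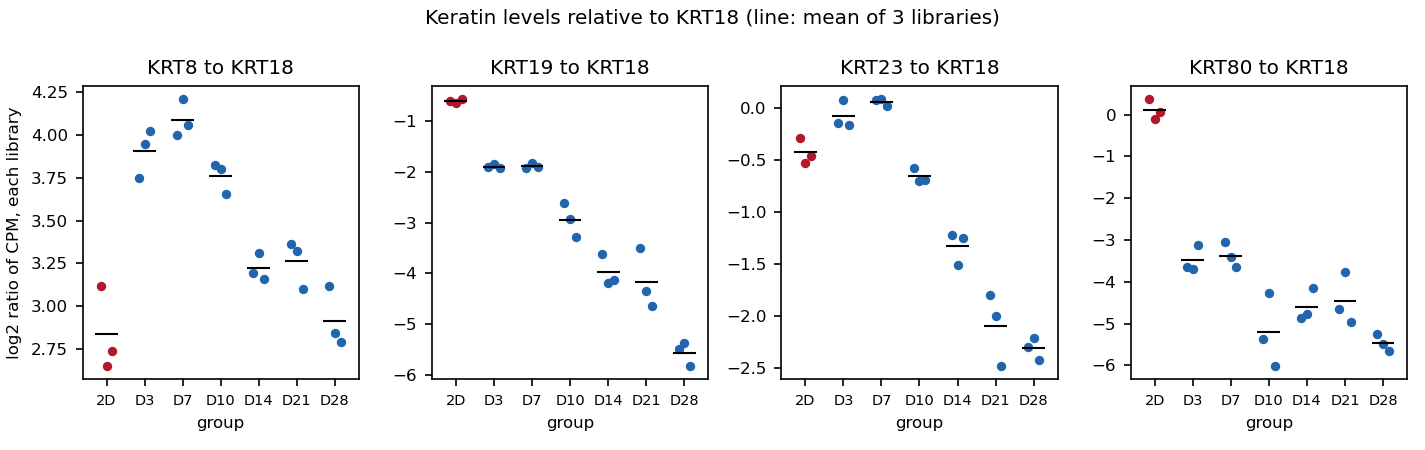
Log2 ratio of the CPM of KRT8, KRT19, KRT23 and KRT80 to that of KRT18 (vertical axes) in each library of the 2D monolayer (red) and the 6 spheroid days (blue), with a line at the mean of 3 libraries. The KRT8 ratio is highest on Day 7 (4.09) and back at 2.92 on Day 28, while the KRT19 ratio runs from -0.60 to -5.57.

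The biliary keratins were a KRT19 that fell on Day 3 and kept falling, and a KRT7 at the edge of detection. KRT19 read 54.1, 64.7 and 65.4 CPM in the monolayer, then 14.7, 13.9 and 14.0 CPM on Day 3 and 11.01, 9.91 and 9.82 CPM on Day 7. It read 8.90, 7.46 and 5.36 CPM on Day 10, 4.37, 2.83 and 2.90 CPM on Day 14, 4.22, 2.25 and 2.01 CPM on Day 21 and 1.12, 1.08 and 0.893 CPM on Day 28. Each group lay below the one before it with no overlap, apart from Day 14 and Day 21. The level was 4.32-fold lower than in the monolayer on Day 3 (log2 -2.11 ± 0.18, adjusted p = 4.71e-11) and 59.5-fold lower on Day 28 (-5.89 ± 0.24, adjusted p = 2.69e-17), with -2.58, -3.09, -4.18 and -4.43 on the days between. KRT19 per KRT18 went from 0.658 in the monolayer to 0.269 on Day 3 and 0.0213 on Day 28. KRT7 had 9 counts in all 21 libraries together: 4 in monolayer replicate 2, 4 in Day 7 replicate 1 and 1 in Day 7 replicate 3. It was at 0 in the other 18 libraries, and was not tested; a count of 0 allows a level of up to 0.0735 to 0.160 CPM over the 21 libraries (3 counts each, for counting error only).

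KRT23 fell in mean level from each group to the next. It read 67.5, 69.9 and 70.5 CPM in the monolayer, 50.1, 52.6 and 47.4 CPM on Day 3, 44.0, 37.2 and 37.2 CPM on Day 7 and 36.8, 34.9 and 32.1 CPM on Day 10. It read 23.0, 18.2 and 21.5 CPM on Day 14, 13.8, 11.5 and 9.10 CPM on Day 21 and 10.4, 9.68 and 9.47 CPM on Day 28. Only Day 21 and Day 28 overlapped among neighbouring groups. The steps from Day 7 to Day 10 (-0.19 ± 0.10, adjusted p = 0.185) and from Day 21 to Day 28 (-0.23 ± 0.12, adjusted p = 0.166) were not called. The change against the monolayer was -0.47 ± 0.10 on Day 3 (adjusted p = 0.000116), -1.003 ± 0.10 on Day 10 and -2.82 ± 0.12 on Day 28, a 7.07-fold lower level (adjusted p = 1.03e-20). Its count ratio to KRT18 was 0.747 in the monolayer, 0.951 on Day 3, 1.04 on Day 7 and 0.202 on Day 28.

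KRT80 had the steepest early fall of the well counted keratins (KRT8, KRT18, KRT19, KRT23 and KRT80), between the monolayer and Day 3. It read 105.8, 94.3 and 100.9 CPM in the monolayer and 4.42, 3.87 and 6.06 CPM on Day 3. The later libraries read 5.01, 3.31 and 2.91 CPM on Day 7, 1.32, 2.97 and 0.807 CPM on Day 10, 1.83, 1.89 and 2.90 CPM on Day 14, 1.92, 3.36 and 1.63 CPM on Day 21 and 1.33, 0.994 and 1.01 CPM on Day 28. All 18 spheroid libraries were below all monolayer libraries, while neighbouring spheroid groups in the order of means overlapped. The level was 21.0-fold lower on Day 3 (log2 -4.39 ± 0.31, adjusted p = 9.45e-10) and 92.0-fold lower on Day 28 (-6.52 ± 0.37, adjusted p = 8.28e-11). As the mean of 3 library ratios, the KRT80 count was 1.09 times that of KRT18 in the monolayer and 0.0228 times on Day 28.

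The keratins of stratified epithelia were low in the monolayer and lower in spheroids. KRT15 read 8.35, 10.1 and 10.2 CPM in the monolayer, 0.870, 1.21 and 1.42 CPM on Day 3 and 0.619, 0.888 and 0.465 CPM on Day 7. From Day 10 no group held more than 13 KRT15 counts, and on Day 28 it had 3 counts against 908 in the monolayer, a level ratio of 0.00393 (95% counting interval 0.000809 to 0.0115, for counting error only). The fitted change was -3.05 ± 0.36 on Day 3 (adjusted p = 2.29e-09) and -6.54 ± 0.49 on Day 10 (adjusted p = 5.63e-14). KRT17 had 91 counts in the monolayer, where the libraries read 0.805, 1.07 and 0.976 CPM. It had 2 counts on Day 3, a ratio of 0.0211 (0.00252 to 0.0786), and between 6 and 16 counts in each later group. KRT17 passed the filter through the monolayer alone (1 of 18 spheroid libraries reached the cut of 0.313 CPM, where 3 libraries are needed), so it had to be lower in the spheroids and its test is not used. For the same reason it is no added evidence that all 18 spheroid libraries were below the monolayer libraries for KRT17. Neighbouring spheroid groups in the order of its means overlapped. KRT10 read 0.381, 0.585 and 0.716 CPM in the monolayer and had 24, 31, 7, 18, 22 and 10 counts on Days 3, 7, 10, 14, 21 and 28. It was called lower on Day 10 (-2.86 ± 0.90, adjusted p = 0.00484) and Day 28 (-2.15 ± 0.86, adjusted p = 0.0251). On Days 3, 7, 14 and 21 it gave -1.18, -1.08, -1.53 and -1.34 and was not called. The Day 28 call of KRT10 was lost with no filter on low counts (adjusted p = 0.0622) and without monolayer replicate 2 (0.0553), monolayer replicate 3 (0.0793), or Day 28 replicate 1 (0.0811), 2 (0.0600) or 3 (0.0513). In 3 spheroid libraries KRT10 reached the cut of the filter, and KRT15 did so in 6.

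**Figure D3:**
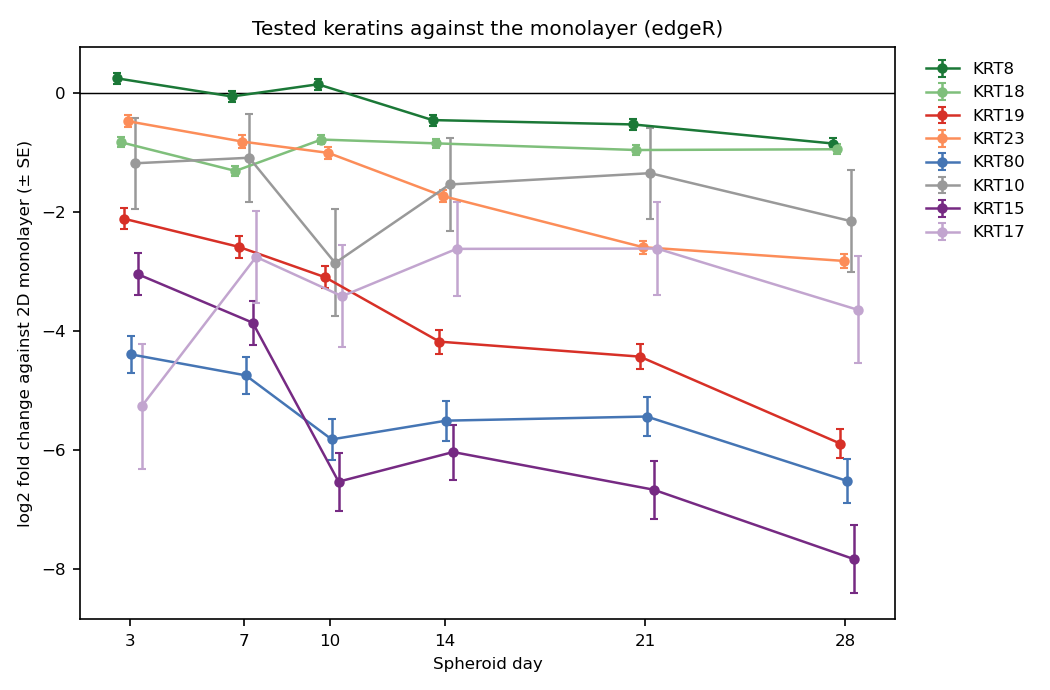
Log2 fold change of the 8 tested keratins against the 2D monolayer (vertical axis) by spheroid day (horizontal axis), with bars of ± SE from edgeR; points are set slightly apart within a day. KRT8 stays closest to 0, KRT19 goes from -2.11 to -5.89, and the wide bars of KRT10 and KRT17 belong to genes with few counts, such as the 2 counts of KRT17 on Day 3.

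Against the monolayer, 7 of the 8 tested keratins were called on Day 3, 1 higher (KRT8) and 6 lower, where 78.0% of all tested genes were called, 40.1% higher and 37.8% lower. Being called is no mark of the keratins here, since most genes were called. KRT17 is among the lower calls and among the keratins without overlap on each day, and was fixed in that direction by the filter. Each count of lower calls or of keratins without overlap in this paragraph thus holds 1 that is no evidence. On Day 7, 6 were called and all were lower (background 78.7% called, 38.4% lower). On Day 10, Day 14 and Day 21, 7 were called lower, where 77.9%, 74.4% and 74.3% of genes were called and 37.9%, 35.7% and 35.1% were lower. On Day 28 all 8 were called lower, where 73.4% were called and 34.8% were lower. The libraries of the monolayer and the spheroid group did not overlap for 8 of the 8 keratins on Day 3, 6 on Day 7, 7 on Day 10 and 8 on each later day, where that held for 80.9%, 80.6%, 79.4%, 76.5%, 75.9% and 74.6% of all tested genes in the order of the days. The 6 comparisons share the monolayer libraries and are not independent of each other. The median log2 change of the 8 was -1.64 on Day 3 and -3.23 on Day 28, and that of all tested genes was 0.056 and 0.084, with KRT17 again among the 8.

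The spheroid days were then compared with each other, which leaves the monolayer out of the contrast. From Day 3 to Day 7, 3 keratins fell (background 19.4% called, 8.76% lower): KRT18 (-0.48), KRT23 (-0.34 ± 0.10, adjusted p = 0.0169) and KRT8 (-0.30 ± 0.091, adjusted p = 0.0198). The KRT23 call was lost without Day 3 replicate 1 or 2 and without Day 7 replicate 2 or 3 (adjusted p = 0.0562, 0.0908, 0.0929 and 0.0745). The KRT8 call was lost without Day 3 replicate 3 or Day 7 replicate 2 or 3 (adjusted p = 0.118, 0.0562 and 0.0772). From Day 7 to Day 10, KRT18 rose and KRT15, KRT19 and KRT80 fell (background 27.4% called, 13.9% higher and 13.5% lower). KRT15 fell by 2.68 ± 0.57 (adjusted p = 0.000537). KRT19 changed by -0.51 ± 0.19 (adjusted p = 0.0455), a call lost without any 1 of the 3 Day 7 libraries or of Day 10 replicates 2 and 3 (adjusted p = 0.132, 0.0839, 0.0840, 0.0937 and 0.231). KRT80 changed by -1.08 ± 0.37 (adjusted p = 0.0407), a call lost without Day 7 replicate 1 or 2 or Day 10 replicate 1 or 3 (adjusted p = 0.158, 0.0623, 0.143 and 0.148).

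From Day 10 to Day 14, KRT8, KRT19 and KRT23 fell (background 48.3% called, 24.3% lower). KRT8 fell by 0.60 ± 0.092 (adjusted p = 4.73e-06), KRT19 by 1.09 ± 0.21 (adjusted p = 0.000109) and KRT23 by 0.73 ± 0.11 (adjusted p = 8.82e-07). KRT80 gave 0.32 ± 0.40 in that step and was called higher without Day 10 replicate 2 (1.09, adjusted p = 0.0251). From Day 14 to Day 21, KRT23 alone was called, with a fall of 0.86 ± 0.11 (adjusted p = 4.07e-07; background 26.6% called, 12.7% lower). Without Day 21 replicate 1, KRT19 (-0.66, adjusted p = 0.0185) and KRT15 (-2.90, adjusted p = 0.0463) were called as well. The KRT15 change is a fitted value from Day 21 libraries with 0 and 1 counts, against 13 counts on Day 14. From Day 21 to Day 28, KRT19 fell by 1.46 ± 0.28 (adjusted p = 0.000407) and KRT8 by 0.32 ± 0.092 (adjusted p = 0.0115), where 24.0% of genes were called and 14.0% were lower. The KRT8 call was lost when only the groups compared were fitted (adjusted p = 0.0602) and without Day 21 replicate 1 or Day 28 replicate 2 or 3 (adjusted p = 0.0592, 0.0853 and 0.0592). Without Day 21 replicate 3, KRT23 was called in that step (-0.37, adjusted p = 0.0155). KRT80 changed by -1.08 ± 0.45 from Day 21 to Day 28 and was not called (adjusted p = 0.0961), but it was called with DESeq2 (adjusted p = 0.0488), with no filter on low counts (2.07e-06) and when only the groups compared were fitted (0.0473).

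Groups without overlap between their libraries were found for 4, 4, 4, 2 and 2 of the 8 keratins in these 5 steps, in order, where they were found for 41.4%, 41.6%, 55.3%, 38.4% and 32.1% of all tested genes.

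Over the whole spheroid course, from Day 3 to Day 28, 5 of the 8 tested keratins fell and none rose (background 59.6% called, 30.2% lower, and 63.9% with no overlap between libraries). KRT15 had 110 counts on Day 3 and 3 on Day 28, a level ratio of 0.0337 (0.00685 to 0.101). KRT19 fell by 3.78 ± 0.25 (adjusted p = 1.13e-12), KRT23 by 2.35 ± 0.12 (adjusted p = 7.74e-18), while KRT80 changed by -2.13 ± 0.41 (adjusted p = 0.000313) and KRT8 by -1.10 ± 0.092 (adjusted p = 1.2e-10). KRT8 fell 2.14-fold between Day 3 and Day 28 while KRT18 did not pass the test; the difference between these 2 changes was not tested. When all 6 spheroid days were tested together for a difference of any kind, 6 of 8 were called, all but KRT10 and KRT17, where 76.2% of all genes were called.

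The other 46 keratin genes had few or no counts: 27 were at 0 in all 21 libraries and 19 had any count, and KRT12 and KRT81 alone passed the filter. KRT81, a hair keratin, had 85 counts in the 3 monolayer libraries and 3 counts in the 18 spheroid libraries, and it passed the filter through the monolayer alone, so its test is not used. KRT12, the keratin of the corneal epithelium, had 30 counts in the monolayer and 78 in the spheroids and was called on Day 21 alone (lower, adjusted p = 0.00846). KRT14 and KRT5, the basal pair of stratified epithelia, had 0 and 5 counts, and KRT20 had 10.

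Keratin filaments are anchored to neighbouring cells by desmosomes and to the matrix by hemidesmosomes, through linker proteins of the plakin family. In a list of 21 such genes, 17 were tested, and 4 were higher and 11 lower on Day 3, and 3 were higher and 13 lower on Day 28, with median log2 changes of -1.15 and -1.05. Of all tested genes, 40.1% were higher and 37.8% lower on Day 3 and 38.5% higher and 34.8% lower on Day 28, with medians of 0.056 and 0.084. PPL (periplakin) fell from 110.0 CPM in the monolayer to 3.71 CPM on Day 3 (-4.88 ± 0.21) and 4.40 CPM on Day 28 (-4.61 ± 0.21). DST (dystonin) fell from 83.4 to 14.3 CPM on Day 3 (-2.55 ± 0.16), and PLEC (plectin), which ties keratins to hemidesmosomes, from 42.6 to 11.8 CPM on Day 3 and 11.7 CPM on Day 28. The hemidesmosome integrin chains ITGB4 and ITGA6 fell by 3.69 ± 0.16 and 1.93 ± 0.12 on Day 28. EVPL (envoplakin), a partner of periplakin, went the other way on Day 3, from 4.79 to 37.7 CPM (2.98 ± 0.10). The adjusted p of each of these changes was 4.31e-12 or less (edgeR). Being called and having no overlap between libraries were conditions for naming these genes, so neither is added evidence.

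**Figure D4:**
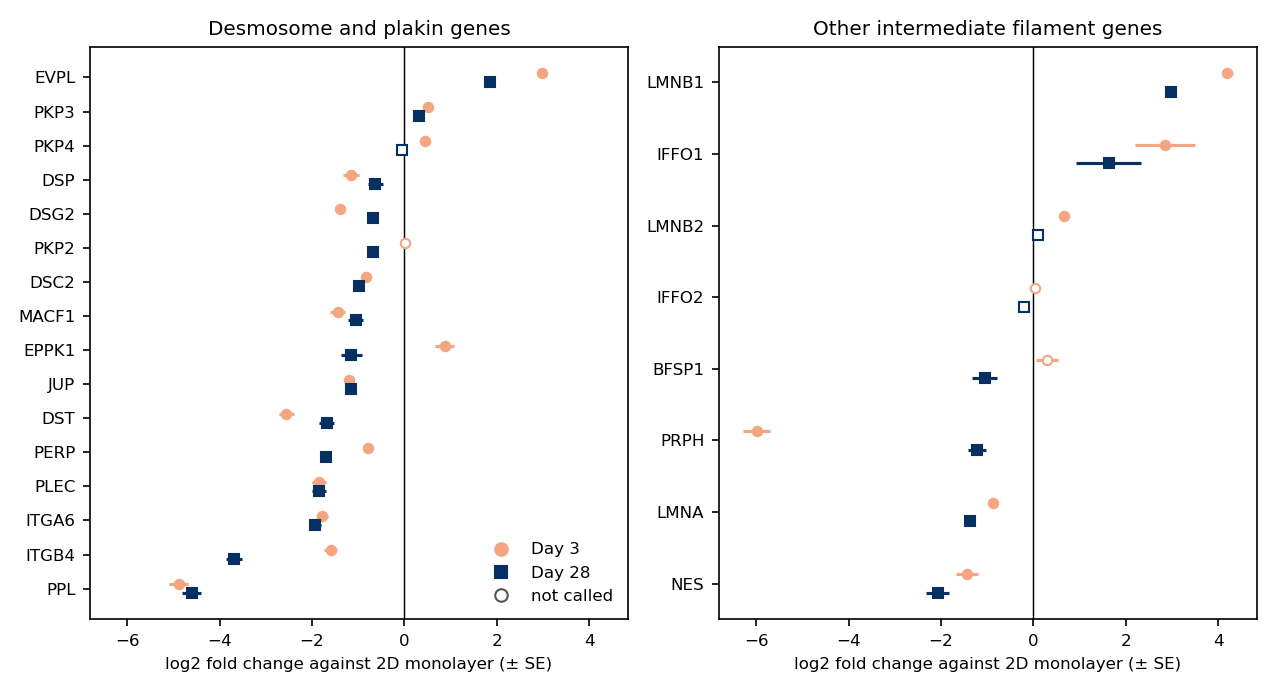
Log2 fold change ± SE against the 2D monolayer (horizontal axes) on Day 3 (circles) and Day 28 (squares) for the tested desmosome and plakin genes (left) and other intermediate filament genes (right), leaving out genes with 3 or fewer counts in one of these groups; open symbols were not called. Most genes on the left lie below 0, with PPL at -4.88 and -4.61, and on the right LMNB1 and LMNA lie on opposite sides of 0.

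Of 20 genes whose products bind or modify keratins, all 20 were tested, and 7 were higher and 11 lower on Day 3 and 5 higher and 11 lower on Day 28, with medians of -0.31 and -0.53, where 40.1% and 37.8% of all tested genes were higher and lower on Day 3 and 38.5% and 34.8% on Day 28. SQSTM1 (p62), which collects with KRT8 and KRT18 in the inclusions of diseased hepatocytes, fell from 967 CPM in the monolayer to 91.0 CPM on Day 3 (-3.41 ± 0.075, adjusted p = 4.76e-28) and 174 CPM on Day 28 (-2.47 ± 0.072). TGM2, a transglutaminase that cross-links keratins, fell from 47.8 to 8.97 CPM on Day 3 and 7.86 CPM on Day 28. CASP6, a caspase that cleaves KRT18, rose from 30.1 to 129 CPM on Day 3 (2.10 ± 0.12). TCHP (trichoplein), a keratin-binding protein, rose by 1.55 ± 0.086 on Day 3 and 1.58 ± 0.086 on Day 28, and the kinase gene CSNK1A1 rose by 1.34 ± 0.083 on Day 28.

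Of 17 intermediate filament genes that are not keratins, 8 were tested, and 3 were higher and 3 lower on Day 3, and 2 were higher and 4 lower on Day 28. These shares are near those of all tested genes on Day 3 (40.1% higher, 37.8% lower; 38.5% and 34.8% on Day 28). The nuclear lamins differed in direction: LMNA fell from 607 to 331 CPM on Day 3 (-0.87 ± 0.062) and 235 CPM on Day 28 (-1.37 ± 0.063), while LMNB1 rose from 3.83 to 71.0 CPM on Day 3 (4.20 ± 0.12) and 30.4 CPM on Day 28 (2.98 ± 0.12). LMNB2 rose by 0.66 ± 0.093 on Day 3.

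The biliary list gave counts near those of all genes. Of 30 biliary markers other than the 9 keratins, 21 were tested, and 9 were higher and 7 lower on Day 3 and 9 higher and 8 lower on Day 28, with medians of 0.0074 and -0.061, where 40.1% and 37.8% of all tested genes were higher and lower on Day 3 and 38.5% and 34.8% on Day 28. Their summed level was 1296 to 1320 CPM in the monolayer, 1898 to 1956 CPM on Day 3 and 1034 to 1045 CPM on Day 28. SOX9 (a biliary and progenitor transcription factor), ANXA4 and GGT1 rose on Day 3 by 1.01 ± 0.063, 1.48 ± 0.10 and 1.35 ± 0.11. SPP1 (osteopontin) fell, with log2 changes of -1.36 ± 0.17 on Day 3 and -2.74 ± 0.18 on Day 28, and so did CLDN4 (-1.95 ± 0.11) and EPCAM (-0.74 ± 0.074) on Day 28. GGT1 went the other way on Day 28, from 9.13 to 30.7 CPM (1.74 ± 0.11). CFTR, CLDN10 and AQP1 were at 0 in all 21 libraries. Of 19 hepatocyte markers tested, 18 were higher and 1 was lower on Day 3 and again on Day 28. Of all tested genes, 40.1% and 38.5% were higher on these days. FGA (a fibrinogen chain) rose from 70.9 to 668 and 3173 CPM, and APOA1 from 621 to 4845 and 3954 CPM. G6PC rose by 3.38 ± 0.33 on Day 3 and 5.50 ± 0.31 on Day 28, TF by 3.57 ± 0.17 on Day 3 and FGB by 4.59 ± 0.14 on Day 28. All of these were named for moving most, and the 1 lower marker of each day is not among them. The part of these markers' changes in the keratin values was not tested.

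The genes most like each keratin over the 21 libraries were found by Pearson's r of log2 CPM among 7201 genes that are not keratins and average at least 10 CPM. These values are a description, as the libraries share 7 groups. KRT8 was nearest TALDO1, INO80E and SFT2D1 (r = 0.96 for each); TALDO1 (transaldolase) stood at 52.4 CPM in the monolayer, 62.9 on Day 3 and 26.5 on Day 28. KRT18 was nearest CHORDC1 (0.96), AREG (0.94) and GSPT1 (0.94), and CHORDC1 read 442 CPM in the monolayer, 95.4 CPM on Day 7 and 136 CPM on Day 28. KRT19 was nearest PIP4K2A (0.98), PLS1 (0.98) and S100A6 (0.97), and KRT23 nearest PAM (0.98), SNX8 (0.98) and HES4 (0.96). KRT80 was nearest C6orf132, TOMM34 and EPS8 (0.98, 0.98 and 0.97), and KRT15 nearest WDFY1, HSF1 and CD109 (0.97, 0.96 and 0.96). The sparse KRT17 (PSAP, 0.91) and KRT10 (UHMK1, 0.83) had weaker neighbours. Among the keratins themselves, r was 0.95 for KRT19 with KRT23, 0.92 for KRT19 with its neighbour KRT15, 0.87 for KRT8 with KRT23 and 0.78 for KRT18 with KRT80. KRT80, on another chromosome than KRT15 and KRT19, had r of 0.89 with KRT15 and 0.86 with KRT19.

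Promoter sequence was at hand for KRT8 and KRT10 among the 9 members (RefSeq, GRCh38.p14). The 250 bases before the RefSeq start of KRT8 are shown because this is the window that was searched.
KRT8, chr12:52926470-52926719, minus strand: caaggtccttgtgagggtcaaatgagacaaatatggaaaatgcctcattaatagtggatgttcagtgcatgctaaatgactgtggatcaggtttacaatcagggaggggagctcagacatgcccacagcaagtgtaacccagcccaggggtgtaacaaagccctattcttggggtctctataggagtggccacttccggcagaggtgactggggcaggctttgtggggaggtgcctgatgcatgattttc
No letter is in capitals because none of the motifs searched on both strands matched in this window or in that of KRT10: TGANTCA (AP-1), GGAATG (TEAD) and GGGCGG (SP1). Of 34943 windows of the same length, 6.59%, 11.9% and 42.5% hold a match to these. This start is 1 of several for KRT8, with 1 of 17 annotated transcripts beginning within 100 bases of it.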

How the data were processed

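Gene expression was measured by TempO-Seq in 21 libraries of HepG2/C3A cells, 3 for each of 7 groups, from 100 ng of total RNA each. The authors deposited raw whole-number counts per gene symbol; per the submitters' processing notes, the build was GRCh38.p13 and the tools listed are STAR 2.7.10b, fastp 0.23.2, DESeq2 1.38.0 and bcl2fastq 2.20.422, in roles not given in the sources used here. How reads with more than 1 match were counted is not given either, which bears on keratins with pseudogenes.

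From the counts, genes were kept with edgeR's filterByExpr (minimum count 10; 12345 of 19683 symbols, and 0.0108% of counts removed), scaled by TMM and fitted with edgeR 4.0.16 (R 4.3.3, robust quasi-likelihood test, no covariate, all 21 libraries). There were 12 contrasts (6 days against the monolayer, 5 consecutive steps and Day 28 against Day 3) and 1 test of any change among spheroid days, with Benjamini-Hochberg adjustment. SE is the log2 change divided by the square root of F. The same steps were tested on simulated data. Alternatives were RLE factors, library size alone, no filter, a minimum count of 50, DESeq2 1.42.0, a replicate block, only the groups compared, and leaving out each library.

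The members and the 8 gene lists were chosen with earlier results of these data known. All 9 members are named, with every other keratin tested. From each other list, up to 4 genes are named in Day 3 and in Day 28 against the monolayer: those that moved most among genes called, averaging 10 CPM or more, whose 2 groups of libraries do not overlap. KRT5, KRT14 and KRT20, the markers at 0, and the genes in the closing observations outside that rule were chosen after their values were seen. Like genes are the 3 with the highest r (log2 CPM, prior count 2). Shared stretches were exact 50-base matches between a member's principal GENCODE 29 transcript and the transcripts of other genes.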

Additional observations from a re-analysis of the deposited data

Results flagged for a closer look

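For 5 keratins the effect against the monolayer at Day 28 differed from that at Day 3 by the test of Day 28 against Day 3 (edgeR, adjusted over all genes), in which the shared monolayer cancels out. The difference was -4.79 on the log2 scale for KRT15 (adjusted p = 1.84e-07; a fitted value from 3 counts on Day 28), -3.78 for KRT19 (1.13e-12), -2.35 for KRT23 (7.74e-18), -2.13 for KRT80 (0.000313) and -1.10 for KRT8 (1.2e-10). In each of the 5 the 3 Day 28 libraries were below the 3 Day 3 libraries. Of all tested genes, 59.6% were called in this comparison and 63.9% had no overlap between libraries. Groups of 3 libraries were not tested for single libraries that stand apart.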

How the results depend on the processing

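No keratin call changed direction under any alternative run. With only the groups compared fitted, 3600 genes in place of 2393 were called in Day 7 against Day 3, and 1865 in place of 2964 in Day 28 against Day 21. Leaving out each library in turn gave 1547 to 2086 genes in Day 7 against Day 3, with 1 to 3 keratins called there, 2 to 3 in Day 10 against Day 7, 1 to 3 in Day 21 against Day 14 and 1 to 3 in Day 28 against Day 21. Library size alone moved the median log2 change of all genes against the monolayer by 0.14 to 0.22. It also changed the share of higher among called genes from 54.8% to 39.4% in Day 7 against Day 3 and from 41.8% to 55.6% in Day 28 against Day 21. KRT19 in Day 7 against Day 3 (adjusted p = 0.0666) was called under library size alone (0.0361), no filter (0.00394) and only the groups compared (0.00154). KRT8 in Day 10 against Day 7 (adjusted p = 0.0978) was called with no filter (0.0118), only the groups compared (0.0174) and without Day 10 replicate 3 (0.0125), and KRT10 on Day 14 with only the groups compared (0.0260). Replicate numbers were not taken to pair the libraries, since over 63 same-numbered pairs the correlation of deviations was -0.060 to 0.099, with none over 0.1. As a hint from the data and not the design, the median was 0.015 against -0.0068 for other pairs. For 16 of 21 libraries, the mean correlation with libraries of other groups was highest for their own number, where 7 would be if numbers were unrelated. With the replicate block, KRT19 in Day 7 against Day 3 was called (-0.47, adjusted p = 0.0284) and KRT80 in Day 10 against Day 7 was not (-1.09, adjusted p = 0.0581). Depth limits KRT7, KRT10, KRT15 and KRT17, whose spheroid values rest on few counts. The causes were not tested.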

Other observations

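Regulators of epithelial and stratified epithelial genes had 14 of 23 members tested, of which 5 were higher and 6 lower on Day 3 and 2 higher and 8 lower on Day 28 (edgeR). Of all tested genes, 40.1% were higher and 37.8% lower on Day 3 and 38.5% and 34.8% on Day 28. Their summed level was 243 to 246 CPM in the monolayer, 77.1 to 79.2 CPM on Day 3 and 46.5 to 64.6 CPM on Day 28. KLF5, a transcription factor of proliferating epithelia, made up much of the monolayer sum: it fell from 156 CPM to 3.23 CPM on Day 3 (-5.56 ± 0.27) and 3.06 CPM on Day 28 (-5.64 ± 0.28). CDH1 (E-cadherin) rose on Day 3 from 27.9 to 49.5 CPM (0.83 ± 0.14). TP63, GRHL2, TFAP2C and IVL were at 0 in all 21 libraries.

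Of 15 markers of fibroblasts, endothelium and immune cells, 4 were tested. On Day 3, 3 were higher and 0 lower, where 40.1% of all tested genes were higher and 37.8% lower (edgeR). On Day 28, 3 were higher and 1 was lower, where 38.5% of all tested genes were higher and 34.8% lower. LYZ (lysozyme) rose from 20.0 to 168 CPM on Day 3 (3.07 ± 0.086) and stood at 56.8 CPM on Day 28, and CD68 fell from 47.5 to 27.3 CPM on Day 28 (-0.81 ± 0.10). COL1A1, COL1A2, DCN, KDR and PTPRC were at 0 in all 21 libraries.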
